A study of Mus musculus with 10 samples.

Results

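Transcripts of 10 neural adhesion genes were followed across 10 mouse libraries of cerebellum and medulloblastoma, a tumour of the cerebellum. The genes were Ncam1, Ncam2, L1cam, Nrcam, Nfasc, Chl1, Cntn1, Cntn2, Cntnap1 and Cntnap2, taken by symbol from a table of 39769 gene symbols. All 10 passed the filter on low counts, which left 15617 genes. Between 0.128% and 0.168% of a library's counts fell on the 10 genes together.

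Most of these genes encode cell-surface proteins built of immunoglobulin and fibronectin domains, which bind copies of themselves or each other on neighbouring membranes and steer the growth, bundling and wiring of axons. NCAM1 and NCAM2, the L1 family (L1cam, Nrcam, Nfasc and Chl1) and the contactins (Cntn1 and Cntn2) belong to the immunoglobulin superfamily, whereas Cntnap1 and Cntnap2 encode the Caspr proteins, relatives of neurexins that lack immunoglobulin domains and pair with contactins on the axon. On myelinated axons, neurofascin and NrCAM gather at the node of Ranvier, contactin 1 and Caspr form the paranodal junction with glial neurofascin, and contactin 2 and Caspr2 hold potassium channels beside it. In the cerebellum, contactin 2 is known for its presence on young granule neurons that have just left the cell cycle, and contactin 1 for its presence on older ones.

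The Ptch group held 4 libraries labelled as control cerebellum of Ptch+/- mice, with 4 months of age given for Ptch 1 and Ptch 2 and 2 months for Ptch 3 and Ptch 4. The NKP group held 3 libraries labelled as medulloblastoma of Nestin-Cre Kmt2dfl/+ Ptch+/- mice at 4 months. The AKP group held 3 libraries labelled as medulloblastoma of AtohI-Cre Kmt2dfl/+ Ptch+/- mice, with 2 months for AKP 1 and AKP 2 and 4 months for AKP 3. All 3 groups carried the Ptch+/- genotype, and there was no wild-type library and no tumour without the floxed Kmt2d allele, so tissue and Kmt2d genotype cannot be told apart. Nestin-Cre acts in neural progenitors at large and Atoh1-Cre mainly in the granule neuron lineage, and both tumour groups kept 1 Kmt2d allele that Cre does not target.

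Several libraries went against their labels. Total counts ran from 12300430 to 19348991. Kmt2d, the floxed gene, stood between 52.6 and 68.4 CPM (a gene's counts relative to the scaled total of its library) in Ptch and between 34.3 and 43.6 in AKP, while NKP ran from 33.2 to 58.0 and NKP 3 lay within the Ptch range. Mki67, a marker of dividing cells, was 84.1, 80.4, 28.8 and 27.3 CPM in Ptch 1 to 4, 0.654, 0.719 and 11.8 CPM in NKP 1 to 3, and 0.575, 49.1 and 38.8 CPM in AKP 1 to 3. Thus the 2 highest values were in libraries labelled cerebellum, and NKP 1, NKP 2 and AKP 1, labelled tumour, were near 0. NKP 1 and AKP 1, of different groups, differed by a chi-square of 3.44 per degree of freedom over genes, beside 3.28 for Ptch 3 and Ptch 4 and 3.46 for Ptch 1 and Ptch 2, the closest pairs within a group, where sampling noise alone gives about 1. In 4 libraries (Ptch 1, Ptch 3, NKP 3 and AKP 3), the level of Y-linked genes did not match the labelled sex. NKP 3 stood closer to Ptch 4 (3.81) and Ptch 3 (5.35) than to NKP 1 (16.6) and NKP 2 (15.1). Group names below are the labels' names.

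The upstream sequences of L1cam, which fell in AKP, of Cntn1, whose library pattern ran against that of L1cam in the Ptch group, and of Cntnap2, which deviated least from its own mean, are shown from RefSeq (GRCm38.p6), 5′ to 3′ on the gene's strand up to the base before the annotated gene. Capitals mark the GC box GGGCGG and the CCAAT box CCAAT on the printed strand or its complement.
L1cam, chrX:73880839-73881084, minus strand: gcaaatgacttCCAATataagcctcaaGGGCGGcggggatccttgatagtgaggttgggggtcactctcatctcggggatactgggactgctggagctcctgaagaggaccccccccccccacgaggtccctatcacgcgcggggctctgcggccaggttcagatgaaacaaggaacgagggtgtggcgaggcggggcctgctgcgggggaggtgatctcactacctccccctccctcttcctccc
Cntn1, chr15:92050915-92051151, plus strand: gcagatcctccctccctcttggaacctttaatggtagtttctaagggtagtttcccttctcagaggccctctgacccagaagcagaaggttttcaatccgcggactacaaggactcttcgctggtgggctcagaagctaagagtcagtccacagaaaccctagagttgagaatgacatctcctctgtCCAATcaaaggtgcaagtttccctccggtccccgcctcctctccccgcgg
Cntnap2, chr6:45059811-45060060, plus strand: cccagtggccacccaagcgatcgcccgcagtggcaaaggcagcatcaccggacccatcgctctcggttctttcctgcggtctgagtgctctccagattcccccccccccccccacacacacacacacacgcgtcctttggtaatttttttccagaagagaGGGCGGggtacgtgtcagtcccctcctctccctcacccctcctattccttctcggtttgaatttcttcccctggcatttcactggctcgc
L1cam held 1 GC box and 1 CCAAT box, Cntn1 held 1 CCAAT box, and Cntnap2 held 1 GC box. The TATA box TATAAA, the E-box CAGCTG and the Gli site GACCACCCA were searched as well, on both strands, and had no match in these 3 stretches. Over 32851 promoter windows of 250 bases, 32.7% held the GC box, 33.8% the CCAAT box, 12.4% the TATA box, 13% the E-box and 0.225% the Gli site. A match describes letters and not a bound site. RefSeq promoter entries were found for 8 of the 10 genes, without Ncam1 and Cntnap1.

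The genes lie on 8 chromosomes. L1cam is on chromosome X (73853778 to 73880838, minus strand) and Cntnap1 on chromosome 11 (101174617 to 101190724, GRCm38.p6), where it spans 16.1 kb. Cntnap2 spans 2241.3 kb on chromosome 6, and Cntn2 and Nfasc are neighbours on chromosome 1, 21.4 kb apart. Exons of Ncam1, L1cam and Cntnap1 overlap those of Gm11149, Arhgap4 and Plekhh3 by 417, 100 and 233 bases. Gm11149 and Plekhh3 lie on the opposite strand, which the library kit does not mark, and Arhgap4 lies on the same strand as L1cam. Reads in these overlaps therefore cannot be told apart by strand. Arhgap4, at 1.58 to 3.02 CPM, was far lower than L1cam, and neither it nor Plekhh3 passed the test in AKP against Ptch (log2 fold changes 0.32 and -0.16, edgeR adjusted p = 0.514 and 0.51); both were chosen after the overlaps were seen.

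Per kilobase of the longest annotated transcript, Cntn1 had the highest median level over the 10 libraries, at 46.6 CPM per kb (34.0 to 53.5), followed by Cntn2 at 39.4 (32.3 to 49.7) and Ncam1 at 38.4 (30.7 to 46.6). These ranges overlapped, and Cntn1 exceeded Cntn2 in 7 of 10 libraries. Cntnap1 (median 30.3 CPM per kb) and Nrcam (27.8) came next and overlapped. Nrcam was above Nfasc (19.0) in every library with no overlap of ranges, and Nfasc, Chl1 (14.1) and L1cam (11.9) overlapped with their neighbours in this order. Cntnap2 (2.78 CPM per kb) lay below all of these, and Ncam2 (0.889, range 0.484 to 1.11) was the lowest. Ncam2 had 41 to 109 counts per library, the fewest of the 10 genes.

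**Figure D1:**
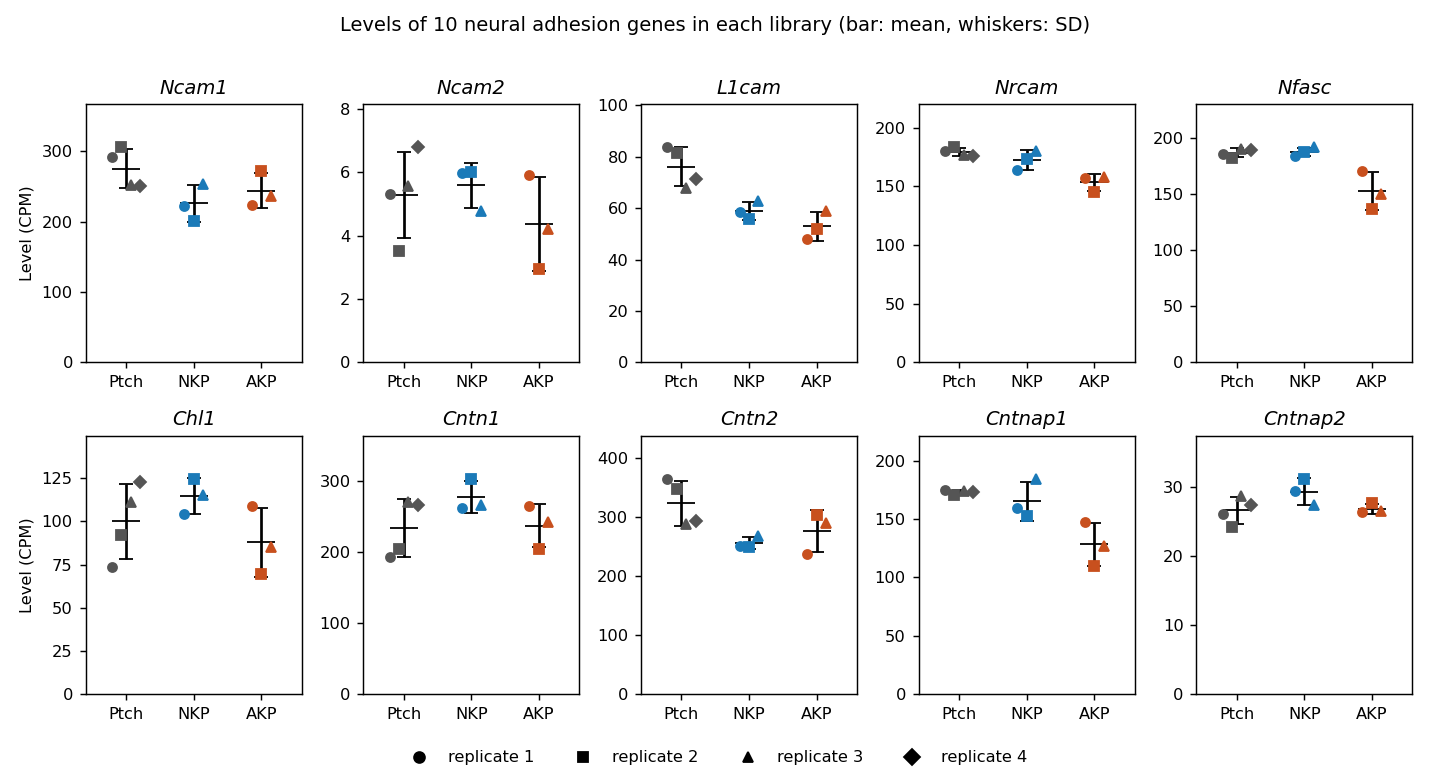
Level (CPM) of each of the 10 genes in every library of the Ptch, NKP and AKP groups, with each axis starting at 0. Points are libraries, horizontal bars are group means and whiskers are SD; the AKP points of L1cam, Nrcam, Nfasc and Cntnap1 all lie below the Ptch points.

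In AKP against Ptch, L1cam and Cntnap1 fell, and the other 8 genes did not pass the test. That is 2 of 10 genes lower and none higher at an adjusted p below 0.05, beside 5.68% of all tested genes called in either direction and 2.3% called lower. The median log2 fold change of the 10 was -0.22, against -0.019 over all tested genes, and 8 of the 10 values were below 0. By an unadjusted p under 0.05, 4 genes differed, all lower, beside 25.1% of all tested genes in either direction. DESeq2 called 4 genes, Nrcam (adjusted p = 0.0218) and Nfasc (0.0106) in addition, beside 12.4% of all genes.

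L1cam, the founding member of the L1 family, which promotes neurite growth and axon bundling, was 83.6, 81.6, 67.9 and 71.4 CPM in Ptch 1 to 4, 58.5, 55.8 and 62.7 CPM in NKP 1 to 3, and 47.8, 51.8 and 59.0 CPM in AKP 1 to 3. Every AKP and every NKP library lay below every Ptch library, and the 4-month Ptch libraries were the highest. The AKP mean was 52.9 ± 5.71 CPM (SD, n = 3) against 76.1 ± 7.63 (SD, n = 4) in Ptch, a log2 fold change of -0.53 (SE 0.104, edgeR adjusted p = 0.022), so L1cam fell by 30.5%. The NKP mean of 59.0 ± 3.49 CPM (SD, n = 3) gave -0.37 (SE 0.103, edgeR adjusted p = 0.218). AKP and NKP overlapped, with a log2 fold change of -0.16 (SE 0.11, edgeR adjusted p = 0.464).

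Cntnap1, which encodes the axonal Caspr protein of the paranode, was 174.8, 170.8, 174.4 and 173.4 CPM in Ptch 1 to 4, 159.3, 152.7 and 184.6 CPM in NKP 1 to 3, and 147.6, 110.2 and 127.3 CPM in AKP 1 to 3. The Ptch libraries were nearly level, all 3 AKP libraries lay below every other library, and AKP 2 was the lowest. Cntnap1 fell by 26% in AKP against Ptch, from 173.3 ± 1.83 (SD, n = 4) to 128.4 ± 18.7 CPM (SD, n = 3), a log2 fold change of -0.43 (SE 0.104, edgeR adjusted p = 0.0349). In NKP the mean was 165.5 ± 16.8 CPM (SD, n = 3) and the log2 fold change -0.07 (SE 0.103, edgeR adjusted p = 0.77).

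Both calls depended on which libraries entered. L1cam kept a negative log2 fold change between -0.61 and -0.33 in 24 alternatives and passed the threshold in 15 of them. Cntnap1 ran from -0.55 to -0.26 and passed in 12 of 24. Neither was called when 1 of 4 libraries was left out: without Ptch 1 (L1cam adjusted p = 0.0681, Cntnap1 0.0942), without Ptch 2 (0.0641 and 0.0792), without AKP 2 (0.115 and 0.154) or without AKP 3 (0.0534 and 0.107), by edgeR. Of all tested genes, edgeR called 1 without Ptch 1, 1 without Ptch 2, 1 without AKP 2 and 0 without AKP 3. Cntnap1 was also not called without Ptch 3 (0.0634) or Ptch 4 (0.0757), where 321 and 183 genes were called in all. Among the 2-month libraries alone, the log2 fold changes were -0.49 for L1cam (adjusted p = 0.287) and -0.44 for Cntnap1 (0.33), close to the values from all libraries but with 2 libraries a group. Without the 4 libraries that did not match the labelled sex, L1cam was at -0.61 (adjusted p = 0.406) and Cntnap1 at -0.41 (0.451). In AKP against Ptch, 0 of all tested genes were called among the 2-month libraries, and 0 without these 4 libraries. A further fit left out 5 libraries for their Mki67 level, the cerebellum libraries Ptch 1 and Ptch 2 and the tumour libraries NKP 1, NKP 2 and AKP 1, a choice made after seeing the data; it kept NKP 3, whose Mki67 was below that of Ptch 3 and Ptch 4. There, L1cam was at -0.33 (adjusted p = 0.0167) and Cntnap1 at -0.55 (0.000436). In that fit 6 of the 10 genes were called in AKP against Ptch, all lower (Ncam2, L1cam, Nfasc, Chl1, Cntn1 and Cntnap1), beside 25.6% of all tested genes.

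**Figure D2:**
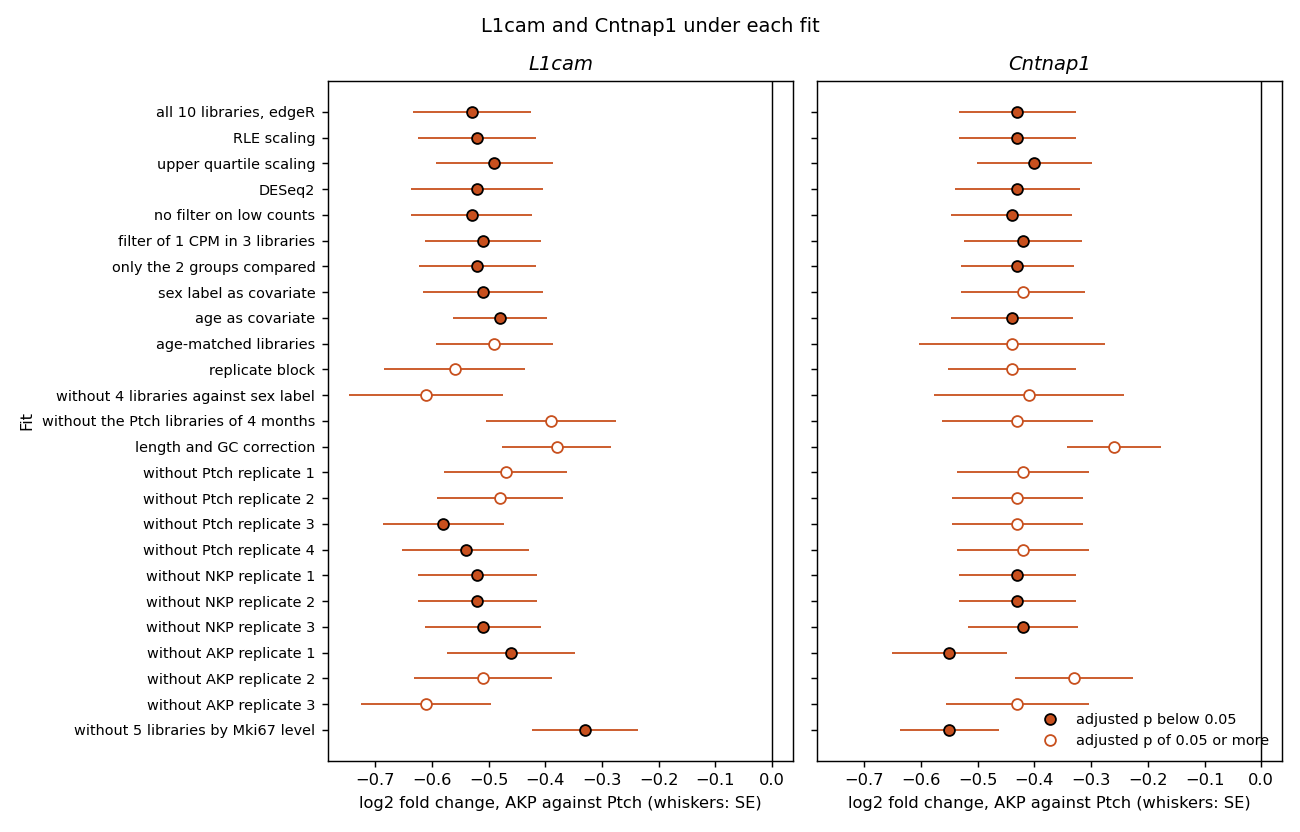
The log2 fold change of L1cam and Cntnap1 in AKP against Ptch (horizontal axis; whiskers, SE) under the fit of all 10 libraries and 24 alternatives (rows). Filled points passed an adjusted p below 0.05; L1cam ran from -0.61 to -0.33 and Cntnap1 from -0.55 to -0.26.

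Transcript length moved with these differences. The tested genes were put into 4 equal classes by length, and all 10 adhesion genes lie in the class of longest transcripts, with a longest annotated transcript of at least 4820 bases, while the median over tested genes was 3372 bases. In AKP against Ptch the median log2 fold change was 0.22 in the shortest class, 0.02 and -0.07 in the middle classes and -0.20 in the longest, where 275 genes fell (7.37%) and 14 rose. The median of the 10 adhesion genes, -0.22, was thus close to that of all genes of their length. When library-specific dependence on transcript length and GC content was taken out, L1cam was at -0.38 (edgeR adjusted p = 0.0877) and Cntnap1 at -0.26 (0.151), and none of the 10 genes passed. Nrcam was then at -0.07 (0.625) and Nfasc at -0.0078 (0.971). The correction left 16 genes called among all tested. In NKP against Ptch the same medians ran from 0.06 to -0.03, and in AKP against NKP from 0.17 to -0.15. The part of length in the L1cam and Cntnap1 results beyond this correction was not tested.

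**Figure D3:**
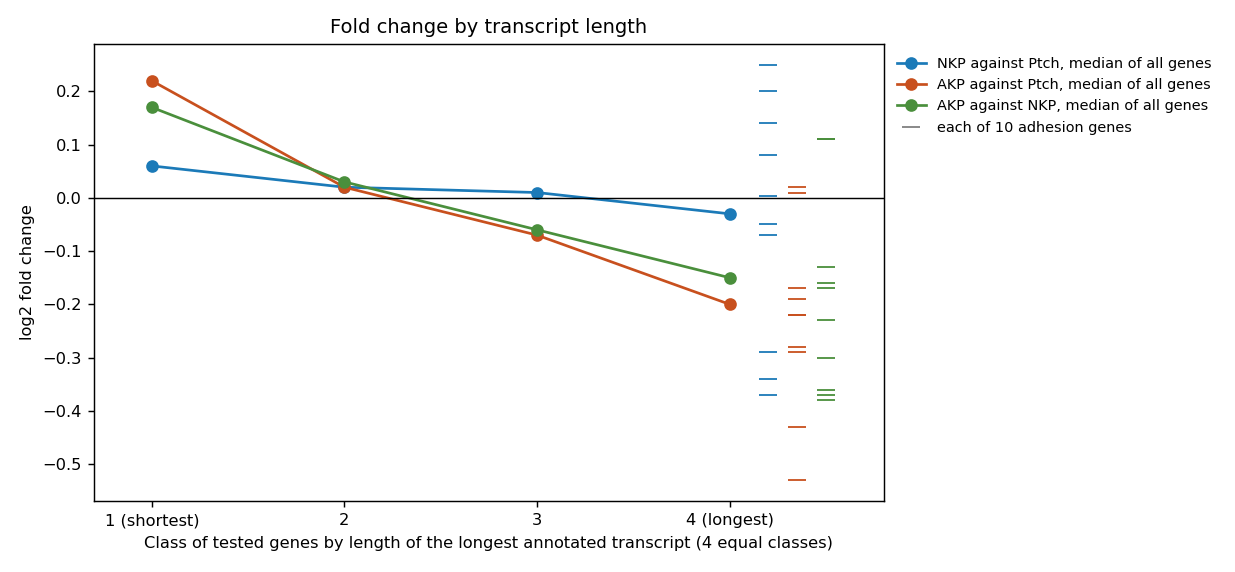
Median log2 fold change of all tested genes in 4 classes by length of the longest annotated transcript, for the 3 comparisons (points joined by lines), with the 10 adhesion genes as dashes at the right beside the longest class, to which they belong. In AKP against Ptch the medians ran from 0.22 in the shortest to -0.20 in the longest class.

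Cell type markers also differed between the groups. The summed level of 13 oligodendrocyte markers was 6300 to 7700.3 CPM in Ptch, 7916.8 to 12825.4 in NKP and 9215.5 to 11559.1 in AKP. That of 6 red blood cell markers was 770.6 to 868.7 CPM in Ptch and 1805.8 to 2304 in AKP, with 3 of 6 called higher in AKP against Ptch. The sum of 12 cycling and granule precursor markers was 1008.1 to 1387.7 CPM in Ptch, 719.9 to 819.1 in NKP and 736.5 to 976 in AKP, with none called and Atoh1 at 0 in at least 1 library. Taken gene by gene, 0 of the 12 were lower in AKP than in Ptch without overlap, and 11 were in NKP. In NKP 1 the sum was 719.9 CPM with Mki67 at 0.654 and Atoh1 at 0 CPM, so other genes of the list carried it. The sum of 8 endothelial markers was 173.4 to 236.9 CPM in Ptch, 249.6 to 325.2 in NKP and 263.8 to 318.1 in AKP, with 1 called higher in AKP against Ptch (Ly6c1). The sum of 12 mature granule neuron markers overlapped, at 4416 to 5406.6 CPM in Ptch and 3507.2 to 6089.2 in AKP. That of 12 brainstem neuron markers was 68.1 to 85.4 CPM in Ptch and 34.5 to 162.3 in AKP, with 2 called higher (Slc18a3 and Hoxb5) and Hoxb3, Hoxb4, Hoxb5 and Hoxa3 at 0 in at least 1 library. The 10 adhesion genes summed to 1568 to 1595.2 CPM in Ptch, 1442.8 to 1555.8 in NKP and 1325.3 to 1391.6 in AKP, without overlap of the groups. In bulk tissue, fewer cells of a type and less RNA per cell cannot be told apart, and the part of these cell types in the L1cam and Cntnap1 results was not tested.

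Nrcam and Nfasc, the L1 family members of the node of Ranvier and the axon initial segment, were lower in every AKP library than in every Ptch and NKP library but missed the threshold. Nrcam was 180.5, 183.2, 176.6 and 176.0 CPM in Ptch 1 to 4, 164.0, 173.0 and 180.3 CPM in NKP 1 to 3, and 157.2, 145.4 and 157.6 CPM in AKP 1 to 3. The difference of AKP from Ptch was -0.22 on the log2 scale (SE 0.0758, edgeR adjusted p = 0.0899). Nfasc, which encodes both a neuronal and a glial neurofascin, was 186.3, 182.6, 190.8 and 189.4 CPM in Ptch 1 to 4, 184.5, 187.3 and 191.8 CPM in NKP 1 to 3, and 170.9, 136.9 and 150.3 CPM in AKP 1 to 3. Ptch and NKP were level (187.3 ± 3.63 and 187.9 ± 3.7 CPM, SD, n = 4 and 3), and AKP 2 was again the lowest. The difference of AKP from Ptch was -0.29 (SE 0.0858, edgeR adjusted p = 0.0595). Gene-level counts do not separate the neuronal from the glial form. In all, the AKP and Ptch libraries did not overlap in 4 of the 10 genes, all lower in AKP (L1cam, Nrcam, Nfasc and Cntnap1), beside 12% of all tested genes that were lower without overlap.

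Chl1, the close homologue of L1, was 73.6, 92.2, 111.4 and 123.1 CPM in Ptch 1 to 4, 104.2, 124.6 and 115.3 CPM in NKP 1 to 3, and 109.2, 69.5 and 85.0 CPM in AKP 1 to 3. The Ptch group alone spanned nearly the whole range, and the AKP difference of -0.19 (SE 0.182, edgeR adjusted p = 0.566) did not pass the threshold.

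Ncam1, the homophilic neural cell adhesion molecule that carries polysialic acid in young neurons, was 292.4, 305.6, 252.9 and 250.8 CPM in Ptch 1 to 4, 222.3, 201.7 and 254.2 CPM in NKP 1 to 3, and 224.1, 272.2 and 235.9 CPM in AKP 1 to 3. Ptch 1 and Ptch 2 stood above all other libraries and NKP 2 was the lowest, and both tumour groups overlapped Ptch. The log2 fold changes against Ptch were -0.29 in NKP (SE 0.111, edgeR adjusted p = 0.236) and -0.17 in AKP (SE 0.111, adjusted p = 0.353). Ncam2, its paralogue known from the olfactory system, was 5.31, 3.51, 5.55 and 6.78 CPM in Ptch, 5.97, 6.02 and 4.76 CPM in NKP, and 5.92, 2.96 and 4.2 CPM in AKP. All 3 groups overlapped, and the log2 fold change was 0.08 in NKP (SE 0.265) and -0.28 in AKP (SE 0.272), neither past the threshold.

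The 2 contactins showed opposite orders within the Ptch group. Cntn2 (TAG-1), the contactin of young granule neurons, was 364.7, 347.4, 288.7 and 292.6 CPM in Ptch 1 to 4, 251.6, 249.3 and 267.9 CPM in NKP 1 to 3, and 236.9, 304.0 and 289.7 CPM in AKP 1 to 3. It was highest in Ptch 1 and Ptch 2, and every NKP library lay below every Ptch library. Cntn1 was 192.7, 204.2, 271.1 and 266.5 CPM in Ptch 1 to 4, 263.1, 303.6 and 267.1 CPM in NKP 1 to 3, and 265.7, 204.8 and 242.7 CPM in AKP 1 to 3. It was lowest in Ptch 1 and Ptch 2, next in AKP 2, and highest in NKP 2. Against Ptch, Cntn2 was at -0.34 in NKP (SE 0.113, edgeR adjusted p = 0.218) and -0.22 in AKP (SE 0.112, adjusted p = 0.237), and Cntn1 at 0.25 in NKP (SE 0.134, adjusted p = 0.351) and 0.02 in AKP (SE 0.134, adjusted p = 0.935).

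Cntnap2 (Caspr2), the partner of contactin 2 beside the paranode, deviated least from its own mean among the 10 genes (root mean square 0.097 on the log2 scale, with Nrcam next at 0.105), at 26.0, 24.2, 28.7 and 27.3 CPM in Ptch 1 to 4, 29.4, 31.1 and 27.3 CPM in NKP 1 to 3, and 26.3, 27.6 and 26.4 CPM in AKP 1 to 3. All groups overlapped. Its log2 fold change was 0.14 in NKP (SE 0.0974, edgeR adjusted p = 0.466) and 0.01 in AKP (SE 0.0983, adjusted p = 0.96).

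In NKP against Ptch, none of the 10 genes passed edgeR's test, and neither did any of the 15617 genes (0% called; 2660, or 17%, had an unadjusted p under 0.05). Of the adhesion genes, 3 had an unadjusted p under 0.05, all lower (Ncam1, L1cam and Cntn2), and DESeq2 called none of the 10, with 406 genes called in all (2.6%). L1cam and Cntn2 were lower in NKP without overlap of the libraries, 2 of 10 genes beside 8.95% of all tested genes. The median of the 10 log2 fold changes was -0.02, against 0.014 over all genes.

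Age entered this comparison, since all NKP libraries were labelled 4 months. With age as a covariate, L1cam (log2 fold change -0.49, adjusted p = 0.0205) and Cntn2 (-0.44, adjusted p = 0.039) were called lower, beside 5.97% of all genes. Against the 4-month libraries Ptch 1 and Ptch 2 alone, 5 of the 10 genes were called, beside 16.2% of all genes. Ncam1 (-0.40, adjusted p = 0.0285), L1cam (-0.48, 0.00747) and Cntn2 (-0.47, 0.00638) were lower and Chl1 (0.47, 0.0219) and Cntn1 (0.49, 0.00853) higher, by edgeR. Against the 2-month Ptch libraries instead, none of the 10 and 0 of all tested genes were called. L1cam was there at -0.25, Cntn2 at -0.19, Ncam1 at -0.16, Cntn1 at 0.04 and Chl1 at -0.04. Without the 5 libraries left out for Mki67, L1cam was at -0.15 and Cntn2 at -0.12. Ptch 1 and Ptch 2 were also the libraries of highest Mki67, so age label and Mki67 level cannot be told apart there.

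In AKP against NKP, none of the 10 genes passed edgeR's test, in which 1 gene passed in all (0.0064%). By an unadjusted p under 0.05, Nfasc and Cntnap1 were lower in AKP, 2 of 10 genes beside 16.9% of all tested genes in either direction. Nrcam, Nfasc and Cntnap1 were lower in AKP without overlap of the libraries, 3 of 10 genes beside 9.52% of all tested genes. The log2 fold changes were -0.17 for Nrcam (SE 0.0808, adjusted p = 0.306), -0.30 for Nfasc (SE 0.0913, adjusted p = 0.228) and -0.37 for Cntnap1 (SE 0.11, adjusted p = 0.228). With transcript length and GC content taken out they were -0.04, -0.11 and -0.24. DESeq2 called 1 of the 10, Nfasc (adjusted p = 0.0481), beside 1.47% of all genes.

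AKP 1 decided several of these counts. Without AKP 1, edgeR called Nfasc (-0.39, adjusted p = 0.0208) and Cntnap1 (-0.48, 0.0187) lower in AKP than in NKP, beside 8.49% of all genes. Against Ptch it then called 3 of the 10, Nfasc (-0.38, adjusted p = 0.0174) besides L1cam and Cntnap1, with 9.08% of all genes called. Without the 5 libraries left out for Mki67, which left NKP with 1 library assumed to vary like the others, Nfasc, Chl1 and Cntnap1 were called lower in AKP than in NKP, with 19.5% of all genes called.

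**Figure D4:**
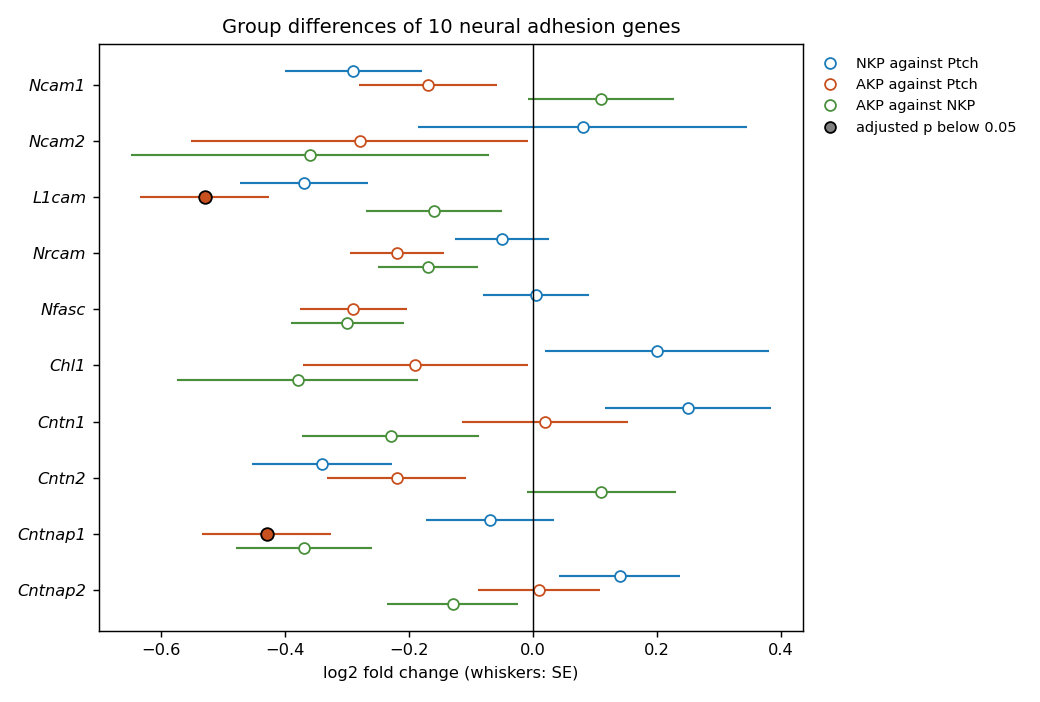
The log2 fold change (horizontal axis; whiskers, SE) of each of the 10 genes in NKP against Ptch, AKP against Ptch and AKP against NKP. Filled points passed an adjusted p below 0.05, which L1cam and Cntnap1 did in AKP against Ptch.

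The 10 genes followed a few library patterns rather than one. Likeness was taken as the root mean square difference of log2 CPM, each gene centred on its mean over the 10 libraries, so that smaller values mean more alike. The closest pairs were Nrcam and Nfasc (0.081), Ncam1 and Cntn2 (0.082), Nfasc and Cntnap1 (0.085), Nrcam and Cntnap1 (0.132) and Chl1 and Cntn1 (0.136), and the farthest pair was Ncam1 and Ncam2 (0.480). Ncam1, Cntn2 and L1cam were highest in Ptch 1 and Ptch 2, the libraries with most Mki67. Cntn1 was lowest in Ptch 1, Ptch 2 and AKP 2 and Chl1 in AKP 2, Ptch 1, AKP 3 and Ptch 2. The lowest libraries of Cntn1 were also those of Gabra6, a receptor subunit of mature granule neurons, at 220.7, 234.3 and 184.3 CPM there against 309.9 to 539.2 CPM in the other libraries. The sum of 12 mature granule neuron markers, Gabra6 among them, gave another order. It was lowest in AKP 2 (3507.2 CPM) and AKP 3 (4175.9), followed by Ptch 2 (4416) and Ptch 1 (4437.9). Nrcam, Nfasc and Cntnap1 were lowest in AKP 2. Among the 10, Nrcam, Nfasc and Cntnap1 were thus alike, while Cntn1, the partner of Caspr at the paranode, was closest to Chl1. Whether the likeness of these 3 is particular to node genes cannot be read from a search of 14163 genes, which readily holds closer ones. Genes outside the 10 were closer still, such as Supt5 to Nrcam (0.028), Smurf2 to Nfasc (0.038) and the spectrin gene Sptan1 to Cntnap1 (0.032). The libraries share depth and composition, and no test was made of these likenesses.

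**Figure D5:**
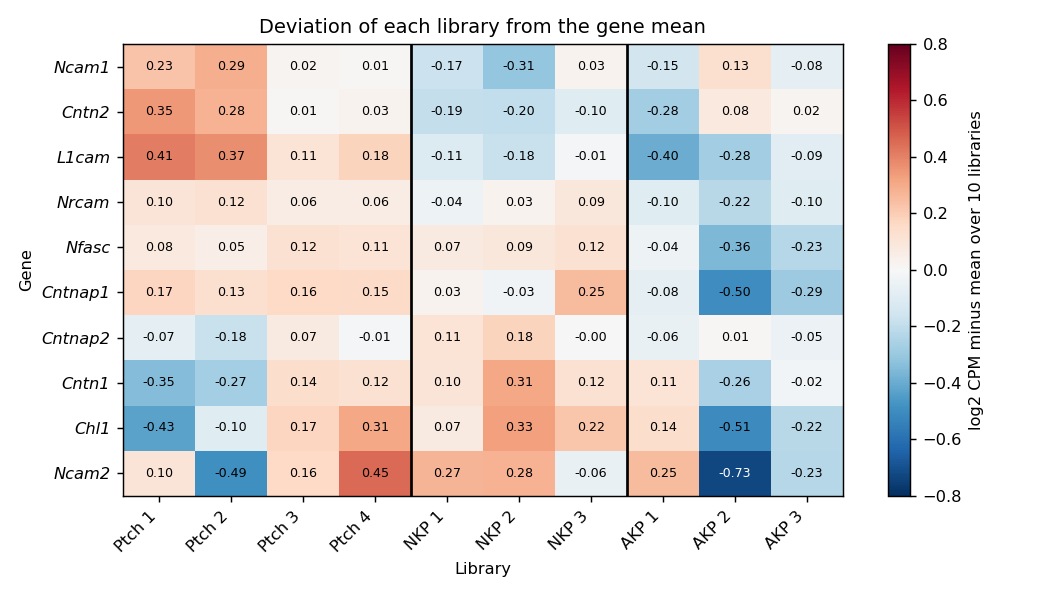
Deviation of log2 CPM from the gene's mean over 10 libraries, for the 10 genes (rows) in each library (columns; lines part the Ptch, NKP and AKP groups). Ncam1, Cntn2 and L1cam are highest in Ptch 1 and Ptch 2, and Nrcam, Nfasc and Cntnap1 are lowest in AKP 2.

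Among 14163 genes searched over the 10 libraries, the 2 genes most like each of the 10 were mostly of other families. Those of Ncam1 were Supt16 (0.039) and Nop56 (0.054), those of Cntn2 Exosc2 (0.041) and Srrt (0.043), and those of L1cam Gtf3c1 (0.064) and Nedd4 (0.068). For Nrcam they were Supt5 (0.028) and Ipo9 (0.033), and for Nfasc Smurf2 (0.038) and Kcnj9 (0.038). Cntnap1 was nearest to Sptan1 (0.032), the spectrin alpha chain of the axonal membrane skeleton, and Galnt15 (0.041). Cntn1 was nearest to Plekha3 (0.033) and Pcsk2 (0.051), and Chl1 to Tenm1 (0.061), a teneurin adhesion protein, and Mpzl3 (0.068). Cntnap2 was nearest to Tex2 (0.031) and Cdadc1 (0.045), and Ncam2 to Fndc3b (0.117) and Lrrc2 (0.127).

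Genes whose products work with the 10 were read from 5 lists. The node, paranode and axon initial segment list held 24 genes, of which 3 fell and none rose in AKP against Ptch. Over all tested genes, 5.68% were called in either direction and 2.3% lower, and 7.37% fell in the class of longest transcripts. The median of the list there was -0.18 on the log2 scale, against -0.019 over all tested genes and -0.20 in the class of longest transcripts. Ank2, an ankyrin that binds L1 family tails to the membrane skeleton, was 283.9, 268.0, 315.1 and 315.6 CPM in Ptch, 260.8, 292.8 and 312.9 CPM in NKP and 238.2, 199.1 and 226.8 CPM in AKP, a log2 fold change of -0.42 in AKP against Ptch (SE 0.101, edgeR adjusted p = 0.0363). Ank3, the ankyrin G of the axon initial segment and node, fell by 0.34 (SE 0.0865, edgeR adjusted p = 0.0416), from 167.7 ± 4.62 (SD, n = 4) to 132.5 ± 6.87 CPM (SD, n = 3). Sptan1 fell by 0.40 on the same scale (SE 0.108, edgeR adjusted p = 0.0492). All 3 AKP libraries lay below all Ptch libraries for each of these genes, as they did for L1cam and Cntnap1. Of the 24 genes, 6 were lower and 2 higher in AKP without overlap with Ptch, beside 12% of all tested genes that were lower without overlap. With transcript length and GC content taken out, Ank2 was at -0.08 (edgeR adjusted p = 0.622), Ank3 at -0.07 (0.573) and Sptan1 at -0.15 (0.415). Without the 5 libraries left out for Mki67 they were at -0.57 (0.000334), -0.35 (0.00605) and -0.50 (0.000768), and without the 4 that did not match the labelled sex at -0.41 (0.451), -0.34 (0.451) and -0.33 (0.55). The calls held in 11, 8 and 6 of 24 alternatives, and all 3 were lost when Ptch 1, Ptch 2, Ptch 3, Ptch 4, NKP 2, AKP 2 or AKP 3 was left out. Of all tested genes, those fits called 1, 1, 321, 183, 553, 1 and 0, in this order. The fit without the 4 libraries that did not match the labelled sex called 0. Ank3 was also lost without AKP 1 (0.0503) and Sptan1 without NKP 3 (0.0507), and the highest of these adjusted p was 0.194, for Sptan1 without AKP 2. By DESeq2, 7 of the 24 genes were called in AKP against Ptch, beside 12.4% of all genes. They were not all lower. Ank2, Ank3 and Sptan1 were among them, but so were Scn4b (87.4 to 90.2 CPM in AKP, 61.8 to 79 in Ptch) and Kcnab2 (209.6 to 222.8 and 160.8 to 200.9). In each of the other comparisons DESeq2 called 1 of the 24, where edgeR called 0. The shares of all genes were 2.6% in NKP against Ptch and 1.47% in AKP against NKP. By edgeR's unadjusted p under 0.05, 2 of the 24 differed in NKP against Ptch, 11 in AKP against Ptch and 12 in AKP against NKP. The shares of all tested genes were 17%, 25.1% and 16.9%. In AKP against NKP, 11 of the 24 were lower and 0 higher without overlap, beside 9.52% of all tested genes that were lower. The list's median there was -0.26, against -0.15 in the class of longest transcripts.

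The other 4 lists had no gene past edgeR's threshold in any comparison, with 0 to 6 genes a list at an unadjusted p under 0.05. Of all tested genes, 17% had such a p in NKP against Ptch, 25.1% in AKP against Ptch and 16.9% in AKP against NKP. They held 8 tested genes of other contactins and Caspr proteins, 17 of ligands and matrix, 18 of co-receptors, signalling, polysialylation and shedding, and 24 of other neural immunoglobulin adhesion proteins. In AKP against Ptch, DESeq2 called 0, 3, 0 and 5 of these, beside 12.4% of all genes. In NKP against Ptch it called 0, 1, 1 and 0, beside 2.6% of all genes, and in AKP against NKP 0 in each, beside 1.47%. By edgeR, in AKP against Ptch, Mag, the myelin-associated glycoprotein, was at 0.46 (adjusted p = 0.0543), Reln, the secreted guide of neuronal positioning, at -0.39 (0.0682), Thy1 at 0.33 (0.0543) and Dscaml1 at -0.49 (0.0561). St8sia2, which adds polysialic acid to NCAM1, was at -1.53 in NKP against Ptch (SE 0.443, adjusted p = 0.218), lower in all 3 NKP than in all Ptch libraries, and at 1.36 in AKP against NKP (SE 0.468, adjusted p = 0.228), where the groups overlapped. Cntn3 and Cntnap4, the nearest relatives in the first of these lists by p, were at 0.29 and 0.19 in NKP against Ptch (adjusted p = 0.454 and 0.466) and at -0.39 and -0.31 in AKP against NKP (0.346 and 0.294). Medians of the 4 lists in AKP against Ptch were -0.11, -0.09, -0.08 and -0.18. The medians of all tested genes (-0.019) and of the class of longest transcripts (-0.20) were below 0 as well, so the shared sign is not particular to these lists.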

How the data were processed

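Poly-A RNA was prepared with an unstranded TruSeq kit, per the labels' protocols. Per the submitters' processing notes, Trim Galore, STAR and RSEM were used with GRCm38; their versions and the gene annotation are not stated in those notes. Values deposited by the authors were read as RSEM expected counts after rounding, because 100% were whole; RSEM splits reads between similar genes by estimation. Of 39769 symbols, 39754 matched RefSeq GRCm38.p6. Transcript lengths and GC content came from GENCODE vM21 and were found for 95.6% of tested genes.

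Genes were kept by filterByExpr, scaled by TMM and tested in 1 fit of all 10 libraries with edgeR 4.0.16 in R 4.3.3 (glmQLFit, robust, and glmQLFTest), at a Benjamini-Hochberg adjusted p below 0.05 over 15617 genes. An SE is the log2 fold change divided by the square root of F. The labels do not say whether each library is a separate animal, so the p-values reflect library-to-library spread, which may be technical. The scripts were tested on simulated counts. Likeness used a prior count of 1. Alternatives were RLE and upper quartile scaling, DESeq2 1.42.0, other filters, fits of the compared groups only, sex and age covariates, age-matched libraries, a replicate block, libraries left out, and lowess trends (span 0.3) with length and GC content as offsets. Leaving out 5 libraries by Mki67 level was added after seeing the data.

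The members and lists were chosen with earlier results of these data known. Named by rule were all 10 members, their 2 nearest genes, and from each partner list the called genes (at most 4) or, if none, those of the 2 smallest p-values, with Kmt2d and the marker genes beside them. Comparisons with Ptch share its libraries.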

Additional observations from a re-analysis of the deposited data

How the results depend on the processing

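How many of the 10 adhesion genes were called depended on the fit. In AKP against Ptch, where 2 were called, DESeq2 called 4 and the sex label as covariate left 1. None was called with age-matched libraries, without the 4 libraries against their sex label, without the Ptch libraries of 4 months or with the length and GC correction (0 each), and 6 were called without the 5 libraries left out for Mki67. Leaving out 1 library at a time gave 0 to 3. In NKP against Ptch, age as covariate gave 2, age-matched libraries 5 and each library left out 0, as it did over all genes. In AKP against NKP, DESeq2 gave 1, leaving out the 5 libraries 3, and 1 library at a time 0 to 2. Over all genes, AKP against Ptch called 887, and 1940 by DESeq2, 231 with the sex label, 1211 with only the 2 groups, 16 with the length and GC correction and 0 to 1459 with 1 library left out. Apart from what the fewer libraries themselves change, the cause was not tested.

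With the replicate number as a replicate block, 0 of the 10 were called in each comparison and 0 genes in AKP against Ptch. Libraries of the same number had correlations of their deviations from the group means between -0.335 and 0.341, so the numbers do not pair them.

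Signs changed among values that were not called in the fit of all 10 libraries. Without the 5 libraries, log2 fold changes in NKP against Ptch became 0.01 for Ncam1, -0.37 for Ncam2, 0.03 for Nrcam, -0.02 for Chl1, -0.0099 for Cntn1, 0.09 for Cntnap1 and -0.04 for Cntnap2. In AKP against Ptch they became 0.0094 for Ncam1, -0.27 for Cntn1 (called, adjusted p = 0.039), 0.03 for Cntn2 and -0.06 for Cntnap2, and in AKP against NKP -0.0032 for Ncam1. Without the Ptch libraries of 4 months, NKP against Ptch gave -0.15 for Ncam2, -0.02 for Nfasc and -0.04 for Chl1, and AKP against Ptch gave -0.17 for Cntn1 and -0.06 for Cntnap2. The length and GC correction gave -0.0086 for Ncam2 in NKP against Ptch, 0.02 for Ncam1, 0.02 for Cntn2 and 0.06 for Cask in AKP against Ptch, and 0.06 for Cntnap2 in AKP against NKP. Age-matched libraries gave -0.20 for Cntn1 and -0.06 for Cntnap2 in AKP against Ptch and 0.02 for L1cam in AKP against NKP. Age as covariate gave -0.004 for Cntnap2 in AKP against Ptch and 0.001 for L1cam in AKP against NKP. Without the 4 libraries against their sex label, Nfasc was at -0.0039 in NKP against Ptch. With 1 library left out, Ncam2 ran from -0.08 to 0.22 and Nfasc from -0.0099 to 0.02 in NKP against Ptch, and Cntn1 from -0.06 to 0.12 and Cntnap2 from -0.02 to 0.05 in AKP against Ptch. Ncam2 had 41 to 109 counts a library, the fewest of the 10 genes.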
